A study of Homo sapiens with 12 samples.

Results

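The comparison of U2OS cells in which the KK form of E2F1 was induced with U2OS cells that carry the empty pTRE vector takes 6 of the 12 RNA-seq samples of the series, 3 biological replicates of each line. U2OS is a human osteosarcoma cell line, and both lines derive from Tet-On U2OS cells, in which doxycycline turns on the gene placed behind the pTRE promoter. The KK line expresses hemagglutinin (HA)-tagged E2F1 in which the arginines at positions 111 and 113 are replaced by lysine, and the pTRE line expresses no ectopic E2F1. Both were grown under G418 and hygromycin B and received doxycycline at 1 µg/ml for 24 hours, so that the drug is shared and the insert differs. Each construct is represented by 1 stable line, and whether a line is a single clone is not given in the sources used here. A difference between the constructs and a difference between the 2 lines in other respects cannot be told apart. The other samples of the study are 3 of a line with wild-type (WT) E2F1 and 3 of the R109K line. The E2F1 of R109K carries a single arginine to lysine change. These samples enter the filter on low counts, the scaling of libraries, the shared estimate of the spread and the direct contrasts near the end.

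E2F1 is a transcription factor that binds DNA together with a DP partner and turns on genes for entry into S phase, such as cyclin E and the enzymes of DNA and deoxynucleotide synthesis. Unphosphorylated RB holds it inactive until cyclin-dependent kinases release it. High E2F1 activity is also known to turn on pro-apoptotic genes, among them TP73 and APAF1. The arginines changed in KK lie in a short glycine and arginine-rich stretch in front of the DNA-binding domain, where the methyltransferases PRMT5 and PRMT1 are known to act.

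The stretch of the E2F1 coding sequence that holds the altered residues is shown because it defines the KK form. It lies in coding exon 2 on the minus strand of GRCh37 (the hg19 build of the files), at chr20:32268133-32268171, and covers codons 105 to 117 of the reference gene. Capitals mark codons 111 and 113, AGA and CGC, which are those changed to lysine codons in KK. The codon altered in R109K, CGG, is left as in the reference.
E2F1, codons 105 to 117: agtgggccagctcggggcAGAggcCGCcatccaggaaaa

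Reads on genes numbered between 24253265 and 28002770 in the pTRE samples and between 21366887 and 28751603 in the KK samples. Levels are given as reads per 1000000 reads on genes (CPM, with library sizes scaled by edgeR's TMM method), in the order of replicates 1, 2 and 3. Of 25369 genes listed, 16625 had enough reads to be tested. Correlations of log2 CPM between samples were 0.990 to 0.993 within pTRE, 0.985 to 0.993 within KK, and 0.954 to 0.962 between the lines, and KK replicate 2 was the sample least like the other KK samples. WT replicate 2, a sample outside this comparison, stood apart. It had 11500537 reads on genes, 31.2% of its reads, and 58.7% on no annotated gene. These shares were 59.0% to 65.7% and 23.6% to 29.6% in all other samples. Osteoblast genes were only in part present: COL1A1, SPARC, SPP1 and RUNX2 were read in every sample, whereas SP7 and IBSP had at most 3 reads in any sample. The mesenchymal genes VIM, FN1 and CDH2 and the keratins KRT8 and KRT18 were read in every sample. The T cell gene CD3E had 0 reads in these samples, but the leukocyte genes PTPRC and CD14 had 6 to 18 and 4 to 19. The endothelial gene PECAM1 had at most 2 reads and CDH5 at most 9, while VWF had 16 to 74. Of the neural genes, SOX2 had 84 to 187 reads, RBFOX3 558 to 990 and GFAP 4 to 11. The epithelial genes EPCAM, CDH1 and ESRP1 had 286 to 356, 20 to 38 and 5 to 11.

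E2F1 itself, the gene under test (chromosome 20, 32263283 to 32274191, minus strand, GRCh37), was read at 89.2, 82.9 and 101 CPM in pTRE and 1359.6, 1478 and 1112 CPM in KK. The groups were far apart, with a mean 14.4-fold higher in KK (log2 fold change 3.85 ± 0.20, adjusted p = 4.75e-09, edgeR quasi-likelihood test with Benjamini-Hochberg adjustment over all tested genes). Reads of the HA-tagged insert and of the resident gene are counted together here.

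At an adjusted p below 0.01, 2287 genes were higher in KK (13.8% of those tested) and 1772 were lower (10.7%). With the added condition of a change greater than 2-fold, 1165 genes were up-regulated (7.01%) and 649 were down-regulated (3.9%). Below, rose and fell refer to the first rule, and these percentages are the background for each gene list. The list counts are descriptions and not tests of the lists. The 3 KK and 3 pTRE CPM values did not overlap in 49.4% of all tested genes and in 100% of those that passed. Non-overlap of KK and pTRE values, where stated for a gene, therefore adds nothing to its call. The median log2 fold change over all tested genes was -0.01. Of the up-regulated genes, 424 rose over 4-fold and 155 over 8-fold, against 121 and 24 of the down-regulated genes. The levels of the 2 sets in pTRE differed, in part by selection, since a gene must be read in pTRE to fall. The median up-regulated gene went from 3.34 CPM in pTRE to 11.6 CPM in KK, and 30.9% of them were below 1 CPM in pTRE. The median down-regulated gene went from 13.1 to 4.75 CPM, and 6.32% were below 1 CPM in pTRE. In KK, 9.27% of the up-regulated and 20.8% of the down-regulated genes were below 1 CPM. Since these are bulk samples, fewer cells expressing a gene and less RNA per cell cannot be told apart.

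**Figure D1:**
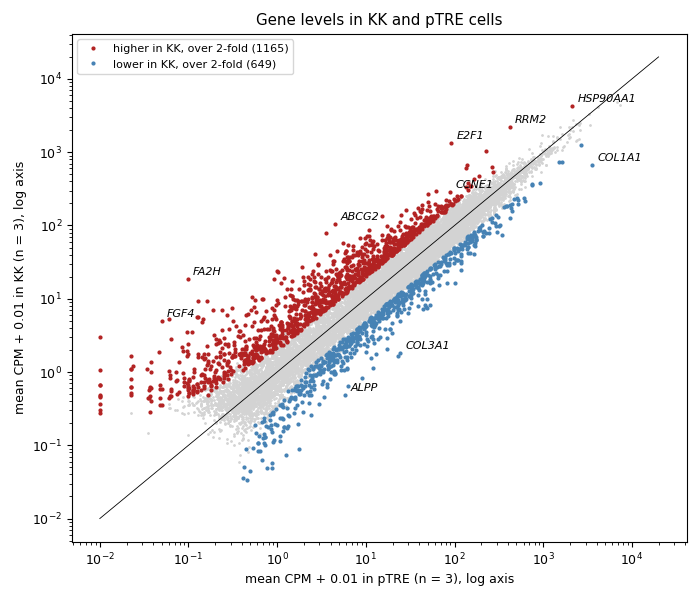
Mean CPM of each tested gene in pTRE (horizontal axis) and KK (vertical axis), both log axes with 0.01 added, 3 samples per line. Colored points are the 1165 up-regulated and 649 down-regulated genes. FA2H and FGF4 are labeled examples of up-regulated genes nearly silent in pTRE.

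Within the E2F family and its DP partners, 4 of 10 tested members rose and 1 fell. E2F7 and E2F8, the atypical members that repress E2F target genes, both rose. E2F7 was read at 73.0, 73.9 and 63.5 in pTRE and 215, 129 and 182 in KK CPM, and E2F8 at 20.5, 22.2 and 22.7 in pTRE and 47.9, 33.9 and 43.5 in KK CPM. The ranges of the groups did not overlap for either gene (log2 fold change 1.32 ± 0.16, adjusted p = 1.74e-05 for E2F7, log2 fold change 0.94 ± 0.13, adjusted p = 5.52e-05 for E2F8). E2F2, an activator like E2F1, rose 1.51-fold, from a mean of 62.3 to 93.7 CPM. The other activator, E2F3, and the DP partners TFDP1 and TFDP2 did not pass, at log2 fold changes of -0.26, 0.30 and 0.09. E2F5, a repressor that works with the pocket protein p130, fell from a mean of 6.18 to 3.42 CPM (log2 fold change -0.85 ± 0.19, adjusted p = 0.00269). That call was lost without KK replicate 3 and without pTRE replicate 2 (adjusted p = 0.0123 and 0.0168). Among 11 pocket protein and DREAM complex genes, LIN54, the DNA-binding subunit of the MuvB core, rose 2.19-fold (50.4 to 110.4 CPM), while RB1 gave a log2 fold change of 0.67 and did not pass (adjusted p = 0.0159). RB1 did pass with DESeq2 (adjusted p = 0.00427), in the 6 samples alone (0.00953), with no filter on low counts (0.0078) and without KK replicate 2 (0.000658), and TFDP1 passed with DESeq2 (0.0078).

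The cyclins of G1 and S phase moved in both directions. Of 12 tested cyclins, CDKs and their regulators, 6 rose and 2 fell. CCNE1, which encodes cyclin E1 (chromosome 19, 30302898 to 30315219, plus strand), was read at 83.4, 83.7 and 97.7 in pTRE and 273, 304 and 282 in KK CPM. CCNE2, its paralog, was read at 20.3, 18.8 and 18.8 in pTRE and 97.8, 68.8 and 92.7 in KK CPM. Both cyclin E genes were higher in every KK sample than in any pTRE sample, at log2 fold change 1.70 ± 0.13, adjusted p = 1.08e-07 for CCNE1 and log2 fold change 2.16 ± 0.17, adjusted p = 1.4e-07 for CCNE2. CCND3, which encodes cyclin D3, was read at 33.1, 40.0 and 41.8 in pTRE and 180.5, 183 and 162 in KK CPM and rose 4.58-fold. The other D-type cyclins went the opposite way. CCND2 was read at 276, 283 and 220.2 in pTRE and 152, 149 and 183 in KK CPM, and CCND1 fell from a mean of 203 to 146 CPM (log2 fold change -0.47, adjusted p = 0.00241), a call lost without KK replicate 1 and without pTRE replicate 2 (adjusted p = 0.0162 and 0.0174). SKP2, the F-box protein that targets p27 for destruction, rose 2.28-fold, and CDC25A, the phosphatase that activates CDK2, rose 1.89-fold. The kinases CDK2, CDK4 and CDK6 did not pass, with log2 fold changes between -0.25 and 0.07.

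All 6 tested CDK inhibitors rose, with a median log2 fold change of 1.09. CDKN2C, which encodes p18 and inhibits CDK4 and CDK6, was read at 42.3, 39.5 and 47.9 in pTRE and 198, 215 and 159 in KK CPM. CDKN1B, which encodes p27, was read at 48.1, 48.1 and 52.0 in pTRE and 101, 93.4 and 90.8 in KK CPM. CDKN1A, which encodes p21, was read at 133, 142 and 151 in pTRE and 250.5, 238 and 233 in KK CPM. No KK value of these 3 genes reached down to the pTRE range, and the changes were log2 fold change 2.14 ± 0.17, adjusted p = 1.86e-07 for CDKN2C, log2 fold change 0.94 ± 0.13, adjusted p = 4.01e-05 for CDKN1B and log2 fold change 0.76 ± 0.13, adjusted p = 0.000275 for CDKN1A. CDKN1C (p57) rose 3.43-fold from a mean of 3.77 CPM, CDKN2D (p19) 2.36-fold from 10.3 CPM, and CDKN3, a phosphatase that acts on CDK2, 1.47-fold from 95.0 CPM. The CDKN3 call was lost without KK replicate 1, 2 or 3 or pTRE replicate 1, 2 or 3 (adjusted p from 0.0114 to 0.0436). CDKN2A and CDKN2B had too few reads to be tested.

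**Figure D2:**
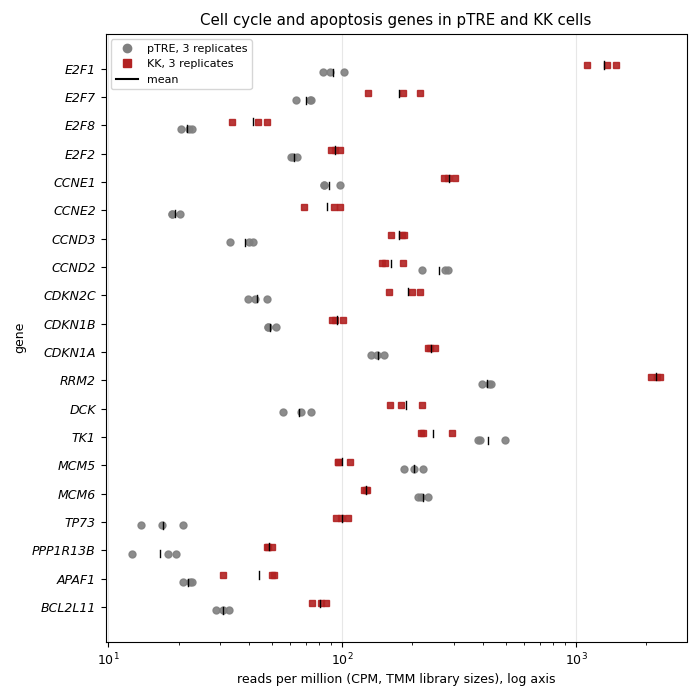
CPM of 20 cell cycle and apoptosis genes in each of the 3 pTRE samples (grey circles) and 3 KK samples (red squares) on a log axis, with black ticks at the means. E2F1, the cyclin E genes, CCND3, CDKN2C and RRM2 lie to the right in KK, whereas CCND2, TK1, MCM5 and MCM6 lie to the left.

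Few of the replication licensing genes, a textbook group of E2F targets, rose. Of 27 tested members 2 rose, 5 fell and 20 did not pass, and the median log2 fold change was -0.06. MCM5, a subunit of the MCM2-7 helicase, was read at 184, 203 and 221 in pTRE and 95.9, 108 and 96.4 in KK CPM. MCM6, another subunit, was read at 234, 218 and 211 in pTRE and 127, 124 and 128 in KK CPM. In both, every KK value lay below every pTRE value (log2 fold change -1.02 ± 0.11, adjusted p = 5.13e-06 for MCM5, log2 fold change -0.81 ± 0.13, adjusted p = 0.000206 for MCM6). MCM2 (log2 fold change -0.50), MCM3 (-0.44) and ORC1, the large subunit of the origin recognition complex (-0.54), also fell. The MCM2 call was lost without KK replicate 3 or pTRE replicate 2 or 3 (adjusted p from 0.013 to 0.0166), and the MCM3 call without KK replicate 1, 2 or 3 or pTRE replicate 1, 2 or 3 (adjusted p from 0.0114 to 0.0358). The members that rose were DBF4, the activator of the CDC7 kinase (0.80), and the helicase gene RECQL4 (0.81). CDC6, which loads the helicase, was read at 165, 151 and 157 in pTRE and 210.2, 187 and 205 in KK CPM and did not pass (log2 fold change 0.35, adjusted p = 0.0349). It passed without WT replicate 2, a library outside this comparison that enters the shared spread (adjusted p = 0.00808).

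Of 32 DNA polymerase and fork genes, 3 rose and 4 fell. POLE, the catalytic subunit of the leading strand polymerase, rose from a mean of 203 to 375 CPM, and TIPIN rose 1.73-fold. Its partner TIMELESS fell 1.77-fold, WDHD1 fell 1.92-fold and POLD4, the small subunit of polymerase delta, fell 2.14-fold. TIPIN and TIMELESS, which form 1 fork protection complex, moved in opposite directions.

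Of 15 tested deoxynucleotide synthesis genes, 6 rose and 2 fell. RRM2, the small subunit of ribonucleotide reductase (chromosome 2, 10262866 to 10271541, plus strand), was read at 434, 396 and 424 in pTRE and 2288, 2093 and 2209.7 in KK CPM (log2 fold change 2.39 ± 0.14, adjusted p = 1.22e-08). The large subunit RRM1 rose less, from a mean of 202 to 291 CPM (log2 fold change 0.53), a call lost without KK replicate 1, 2 or 3 or pTRE replicate 2 or 3 (adjusted p from 0.0119 to 0.0318). DCK, which phosphorylates deoxycytidine in the salvage pathway, was read at 74.0, 66.6 and 56.0 in pTRE and 220.4, 161 and 179 in KK CPM (log2 fold change 1.51 ± 0.18, adjusted p = 1.12e-05). SAMHD1, which breaks down deoxynucleoside triphosphates, rose 2.02-fold. TK1, the thymidine kinase of S phase, was lower at 379.9, 389.9 and 496 in pTRE and 218, 296 and 223 in KK CPM (log2 fold change -0.78 ± 0.17, adjusted p = 0.00202), a call lost without KK replicate 1 or 3 or pTRE replicate 3 (adjusted p from 0.0147 to 0.0152). TYMS, the thymidylate synthase, did not pass, at a log2 fold change of 0.11.

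Mitotic genes that passed rose mostly by less than 2-fold. Of 53 tested members 19 rose and none fell at an adjusted p below 0.01 in edgeR. A log2 fold change above 0 was found in 48 of 53, against 49.2% of all tested genes, and the list median was 0.41. CCNF, which encodes the F-box protein cyclin F, was the 1 member past 2-fold, at 134, 138 and 152 in pTRE and 332, 309.6 and 286 in KK CPM. SPC25 and NDC80, subunits of the same kinetochore complex, rose 1.87-fold and 1.62-fold, and KIF23, a kinesin of cytokinesis, rose 1.59-fold. Of 38 checkpoint and homologous repair genes, 4 rose and 2 fell. RBBP8, which encodes the end-resection factor CtIP, rose 1.79-fold. EZH2, the methyltransferase of polycomb complex PRC2 and a known E2F target, rose 1.66-fold, and the DNA methyltransferase DNMT3B fell 1.92-fold.

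Promoters of these genes were searched for the E2F site in 4 spellings, TTTCCCGC, TTTCGCGC, TTTGCCGC and TTTGGCGC, on both strands, between 250 bases before and 50 bases after the annotated start in GRCh37. The spellings can overlap each other on opposite strands. At least 1 of them was present in 698 of the 14515 tested genes with a window, or 4.81%. The share was 60% among the E2F and DP genes (6 of 10), 48.1% among the licensing genes (13 of 27), 35.5% among the polymerase and fork genes (11 of 31) and 5.88% among the mitotic genes (3 of 51). Among all up-regulated genes it was 4.64%, and among all down-regulated genes 1.91%. Of the 698 genes with a site, 112 rose (16%) and 53 fell (7.59%). None of the 13 licensing genes with a site rose, and 4 fell: MCM2, MCM3, MCM5 and MCM6. The sites below are shown as examples from genes that rose, genes that fell and a gene that did not pass, with 1 site given where a window holds more. Those of MCM2 and CDC6 lie just after the start, with first bases 3 and 8. Capitals mark the motif and each run reads 5′ to 3′ along the strand of the gene.
E2F2 (rose; chr1:23857750-23857777, minus strand): cggcacgacgTTTGGCGCtaaaaaaaaa
E2F8 (rose; chr11:19262677-19262704, minus strand): ccgactttccGCGCCAAAtttttaaatc
CDC25A (rose; chr3:48229934-48229961, minus strand): gtggattccgTTTGGCGCcaactaggaa
TP73 (rose; chr1:3568835-3568862, plus strand): ggagcgacgcGCGCCAAAaggcggcggg
FAM111B (rose; chr11:58874648-58874675, plus strand): gcccttctagGCGGGAAAagttcagctg
SYNE2 (rose; chr14:64319674-64319701, plus strand): cggggcgtggTTTGCCGCtttccgagcg
MCM5 (fell; chr22:35795924-35795951, plus strand): cagccagaagTTTCGCGCcaaattgttc
MCM2 (fell; chr3:127317246-127317273, plus strand): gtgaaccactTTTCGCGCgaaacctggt
CDC6 (did not pass; chr17:38444128-38444155, plus strand): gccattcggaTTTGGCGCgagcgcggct
A match of letters does not show binding, and its absence from a window says nothing about binding elsewhere. FAM111B, a protease gene of replicating cells, rose 4.78-fold (138 to 661 CPM), and SYNE2, which encodes the nuclear envelope protein nesprin-2, rose 4.56-fold (227 to 1038 CPM).

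Apoptosis genes moved in both directions. Of 8 tested p53 family, MDM and ASPP genes 3 rose and 2 fell, 1 of the falls past 2-fold. Among 27 tested p53 targets 3 rose and 4 fell, with a median log2 fold change of -0.12. TP73 (chromosome 1, 3569080 to 3652765, plus strand), which encodes the pro-apoptotic transcription factor p73, was read at 13.8, 17.1 and 20.9 in pTRE and 106, 99.2 and 93.8 in KK CPM. Every KK value was above every pTRE value (log2 fold change 2.53 ± 0.15, adjusted p = 1.35e-08). PPP1R13B, which encodes the pro-apoptotic protein ASPP1, was read at 12.6, 19.6 and 18.0 in pTRE and 48.3, 49.9 and 47.9 in KK CPM and rose 2.91-fold.

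Among the 11 pro-apoptotic BCL2 genes 2 rose and 2 fell. BCL2L11, which encodes BIM, was read at 32.9, 28.8 and 31.0 in pTRE and 85.7, 74.4 and 81.7 in KK CPM (log2 fold change 1.38 ± 0.12, adjusted p = 6.02e-07), and HRK, another BH3-only gene, rose 4.27-fold from a mean of 2.49 CPM. BMF fell 3.27-fold and BOK 1.73-fold. Of the 5 anti-apoptotic genes tested, BCL2 rose from 5.58, 7.30 and 4.30 to 39.7, 31.4 and 32.5 CPM and BCL2A1 from a mean of 0.229 to 3.76 CPM, while BCL2L2, also a survival gene, fell to 35.2 from 52.8 CPM. The BCL2A1 log2 fold change, 3.99 in all samples, was 4.95 without pTRE replicate 2. The rises in the BCL2 family included members with opposite functions. APAF1, the scaffold of the apoptosome, was read at 20.9, 22.9 and 22.4 in pTRE and 51.3, 31.1 and 50.3 in KK CPM (log2 fold change 1.01 ± 0.20, adjusted p = 0.000857). CASP8, the initiator caspase of death receptors, fell 1.65-fold. TNFRSF1A, the main TNF receptor, fell 1.95-fold, the only one of 9 tested death receptor genes to pass.

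**Figure D3:**
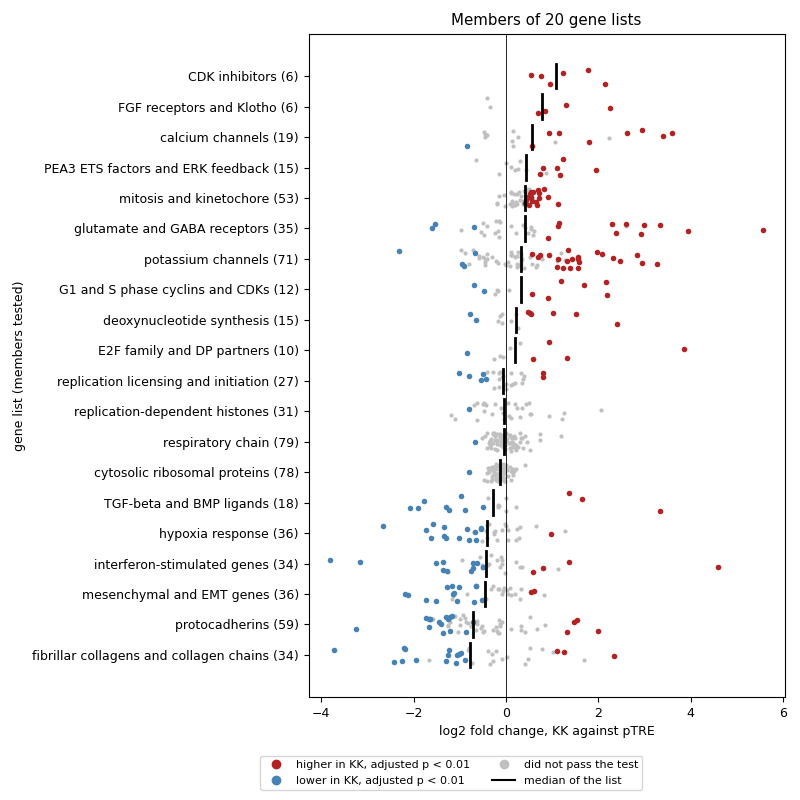
Log2 fold change (KK against pTRE) of each tested member of 20 gene lists, with members tested in brackets, black bars at the list medians and colored points for members past an adjusted p of 0.01. CDK inhibitors lie wholly to the right, while most colored members of the collagen, protocadherin, EMT and hypoxia lists lie to the left, and ribosomal protein and respiratory chain genes cluster at 0.

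The largest rises were in genes with few reads in pTRE. FA2H (chromosome 16, 74746867 to 74808718, minus strand), which encodes the fatty acid 2-hydroxylase of sphingolipid synthesis, had 0, 5 and 2 reads in the pTRE samples and 554, 392 and 443 in KK. Per read on genes, the pooled ratio was 209 (exact 95% interval 101 to 520, which covers counting error only). FGF4, a growth factor of early embryos (chromosome 11, 69585790 to 69590109, minus strand), had 2, 0 and 1 reads in pTRE and 173, 88 and 116 in KK, a ratio of 132 (45 to 643 by the same interval). SPHKAP, an anchor for protein kinase A, had 4, 1 and 4 reads against 311, 183 and 220. GRIK3, a kainate receptor subunit, had 2, 6 and 1 reads against 205, 91 and 143. The fitted log2 fold changes of such genes (7.61, 6.83, 6.29 and 5.57) depend on the prior count of the fit. Without 1 pTRE library, 3 of these moved by over 1.5-fold, to 8.72 without pTRE replicate 2 for FA2H, 7.71 without pTRE replicate 1 for FGF4 and 6.50 without pTRE replicate 2 for GRIK3, and likewise to 10.05 without pTRE replicate 2 for TMEM155 and 6.91 without pTRE replicate 3 for ZBTB8B. The rest of the 10 largest were TMEM155 (6.54), HS6ST3, a heparan sulfate 6-O-sulfotransferase (5.86), SHISA6, an AMPA receptor auxiliary protein (5.52), CBLN2, a synapse organizer (5.25), ZBTB8B (5.21) and PITX3, a transcription factor of dopaminergic neurons (5.17). At high expression, HSP90AA1, the inducible HSP90 chaperone, rose from 2183, 2088 and 2026 to 3677, 5214 and 3953 CPM, and SLC16A1, the lactate transporter MCT1, from a mean of 266 to 619.7 CPM.

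Of 6 tested genes, the fibroblast growth factor receptors and the Klotho family gene KLB, 4 rose and none fell in edgeR. FGFR3 was read at 6.40, 8.93 and 9.26 in pTRE and 42.6, 38.1 and 37.4 in KK CPM (log2 fold change 2.26 ± 0.15, adjusted p = 4.26e-08). FGFR2 rose 2.44-fold, the decoy receptor FGFRL1 1.80-fold and FGFR1 1.61-fold, while FGFR4 (log2 fold change -0.40) and KLB did not pass. Of 13 tested ligands, FGF4, FGF5 and FGF12 rose and FGF11 and FGF21 fell. FGF5 was read at 5.20, 3.80 and 3.75 in pTRE and 35.8, 28.8 and 34.7 in KK CPM (log2 fold change 2.96 ± 0.16, adjusted p = 5.91e-09). FGF11 fell from a mean of 26.0 to 12.1 CPM. FGF21, at means of 4.69 and 2.05 CPM, did not pass without KK replicate 1 and without pTRE replicate 3 (adjusted p = 0.0106 and 0.0164). Of 15 genes of the PEA3 factors and ERK feedback, which follow FGF and ERK signaling, 6 rose and none fell in edgeR. ETV4 rose 2.26-fold and ETV5 2.36-fold from means of 57.9 and 79.1 CPM, and SPRY4, a feedback inhibitor, rose 2.17-fold. ETV1 was low, at 0.991, 0.988 and 0.588 in pTRE and 4.05, 2.50 and 3.32 in KK CPM (log2 fold change 1.94 ± 0.34, adjusted p = 0.000378). DUSP6, another feedback gene, did not pass (log2 fold change 0.44, adjusted p = 0.289).

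Of 71 tested potassium channel genes 22 rose and 4 fell, with 18 of the rises past 2-fold. KCNA3, a voltage-gated channel, was read at 5.62, 5.70 and 6.17 in pTRE and 36.4, 26.5 and 34.1 in KK CPM, and KCNK10, a two-pore domain channel, at 2.60, 1.33 and 2.75 in pTRE and 18.5, 14.6 and 14.8 in KK CPM. KCNC4 rose from a mean of 33.0 to 96.8 CPM. KCNIP1, which binds Kv4 channels, did not pass, at 1.49, 1.71 and 1.80 in pTRE and 2.35, 3.31 and 2.96 in KK CPM (log2 fold change 0.78, adjusted p = 0.0246). Of 19 calcium channel genes 8 rose and 1 fell. The L-type channel CACNA1C was read at 5.20, 5.02 and 7.97 in pTRE and 44.1, 32.6 and 36.0 in KK CPM (log2 fold change 2.63 ± 0.21, adjusted p = 1.89e-07) and CACNA1D rose from a mean of 1.28 to 13.5 CPM. CACNG7 was the member that fell (log2 fold change -0.85). Of 35 glutamate and GABA receptor genes 11 rose and 3 fell. GABBR2, a subunit of the GABA-B receptor, was read at 3.10, 2.66 and 2.31 in pTRE and 43.0, 41.3 and 38.8 in KK CPM (log2 fold change 3.93 ± 0.20, adjusted p = 4e-09), whereas the NMDA receptor subunit GRIN2A fell from a mean of 2.49 to 0.813 CPM. Of 9 general neural markers tested, RBFOX3 rose (23.6 to 37.1 CPM), a call lost without KK replicate 2 or pTRE replicate 1 or 2 (adjusted p from 0.0203 to 0.0268), and TUBB3, MAP2 and NES fell (log2 fold changes -1.61, -1.34 and -1.08).

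Synaptic adhesion and guidance genes split evenly, with 8 of 37 up and 8 down. LRRC4, a postsynaptic adhesion protein, was read at 0.537, 0.456 and 0.551 in pTRE and 4.84, 3.94 and 3.75 in KK CPM (log2 fold change 3.01 ± 0.38, adjusted p = 2.08e-05). UNC5B, a netrin receptor, rose from 19.6, 21.6 and 22.2 to 77.4, 61.8 and 66.8 CPM, and CNTNAP2 fell from a mean of 10.4 to 2.25 CPM. Among 29 tested semaphorins and plexins 7 rose, 6 fell and 16 did not pass, with a median log2 fold change of -0.13. All 5 plexins that passed rose, among them PLXNA2 (7.89, 13.0 and 12.7 in pTRE and 68.7, 56.3 and 66.6 in KK CPM) and PLXND1 (2.31-fold), while 6 of the 8 semaphorins that passed fell, led by SEMA3B (61.2, 59.9 and 79.3 in pTRE and 15.3, 17.6 and 13.1 in KK CPM). SEMA3A and SEMA4D were the semaphorins that rose. Of 20 ephrin and Eph genes, 6 rose and 6 fell, with EPHA4 up (2.17) and EPHA5 down (-2.07). Of 15 tested NOTCH ligands, receptors and targets 5 rose, 2 fell and 8 did not pass. The NOTCH target HES1 had 1076, 819 and 1010 reads in pTRE and 1155, 1112 and 901 in KK. HEY1, a NOTCH target, was read at 4.30, 5.32 and 7.02 in pTRE and 63.1, 56.5 and 53.3 in KK CPM (log2 fold change 3.37 ± 0.22, adjusted p = 3.63e-08), JAG2, a NOTCH ligand, rose 3.12-fold, and LFNG, which glycosylates NOTCH, fell 3.26-fold.

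**Figure D4:**
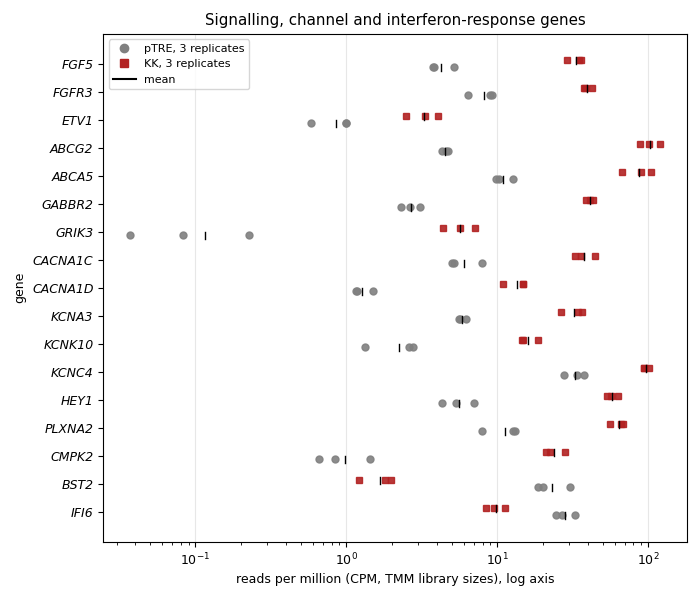
CPM of 17 signaling, channel and interferon-response genes in each of 3 pTRE samples (grey circles) and 3 KK samples (red squares) on a log axis, with black ticks at the means. ABCG2, GABBR2, HEY1 and CMPK2 show wide gaps to the right in KK, and BST2 and IFI6 show gaps to the left.

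ABC transporters included large rises. ABCG2, the drug efflux pump (chromosome 4, 89011421 to 89079791, minus strand), was read at 4.54, 4.29 and 4.70 in pTRE and 119.9, 88.5 and 102 in KK CPM, a 22.9-fold difference (log2 fold change 4.52 ± 0.19, adjusted p = 1.06e-09). ABCA5 was read at 12.7, 10.3 and 9.77 in pTRE and 105, 66.7 and 89.4 in KK CPM, and ABCB1, the P-glycoprotein gene, rose 1.96-fold. ABCC3 and ABCC1, which export conjugates, fell 2.38-fold and 1.66-fold. Of 39 tested members 10 rose and 8 fell. The 258 solute carriers were balanced as well, with 44 up and 41 down. The glucose transporters SLC2A3 and SLC2A12 fell 2.46-fold and 3.69-fold, while the sodium bicarbonate cotransporter SLC4A4 rose 7.67-fold. Reads of SLC2A3 and its near-identical paralog SLC2A14 may be split by the counting.

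Collagen chains were among the genes that fell. Of 34 tested collagen genes 14 fell and 3 rose, with a median log2 fold change of -0.78 against -0.01 for all genes. COL1A1, the main chain of type I collagen (chromosome 17, 48261462 to 48278992, minus strand), was read at 3312, 3279.8 and 4079 in pTRE and 723, 721 and 543 in KK CPM. COL3A1, the chain of type III collagen, was read at 29.7, 27.1 and 15.8 in pTRE and 2.53, 1.44 and 1.46 in KK CPM. The KK values lay far below every pTRE value in both (log2 fold change -2.43 ± 0.15, adjusted p = 1.84e-08 for COL1A1, log2 fold change -3.72 ± 0.33, adjusted p = 5.82e-07 for COL3A1). COL1A2, the partner chain of COL1A1 in type I collagen, had at most 16 reads in any KK or pTRE sample. COL5A1 and COL5A2, the type V chains, fell from means of 343 and 117 to 75.2 and 24.5 CPM, and COL6A1, COL11A1 and COL12A1 gave log2 fold changes of -1.22, -1.95 and -1.02. The exceptions that rose were COL13A1, COL15A1 and COL22A1, at 2.17-, 5.09- and 2.39-fold.

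SPARC, a matrix glycoprotein of bone, was read at 1664, 1387 and 1787 in pTRE and 764, 760.0 and 707 in KK CPM (log2 fold change -1.12 ± 0.16, adjusted p = 7.49e-05), and SERPINH1, the collagen chaperone HSP47, fell 2.13-fold. Of 36 mesenchymal and EMT genes 14 fell and 2 rose. LUM, S100A4 and FAP fell by over 3-fold (-2.19, -2.12 and -1.73 on the log2 scale), the contractile genes MYL9, CALD1 and TAGLN by over 2-fold (-1.29, -1.14 and -1.06), and N-cadherin, CDH2, from 188, 196 and 190.5 to 102, 80.4 and 100.2 CPM. THBS1 and FBLN5 were the members that rose, at 0.55 and 0.61. The THBS1 call was lost without KK replicate 1 or 3 or pTRE replicate 1 or 3 (adjusted p from 0.023 to 0.0354), and the FBLN5 call without KK replicate 1 or pTRE replicate 1 or 2 (adjusted p from 0.0129 to 0.0168). VIM, vimentin, did not pass (log2 fold change -0.06). Of 17 metalloproteinases and inhibitors 7 fell and 2 rose. MMP2, gelatinase A, was read at 207, 200.1 and 227 in pTRE and 76.1, 69.1 and 67.1 in KK CPM (log2 fold change -1.58 ± 0.12, adjusted p = 1.78e-07), its inhibitor TIMP3 fell 3.49-fold, and MMP15 rose 3.32-fold. Of 59 tested protocadherins 16 fell and 4 rose (median log2 fold change -0.71). Clustered members such as PCDHB5 (46.0 to 20.3 CPM) share near-identical exons, so that the assignment of reads among them is uncertain. PCDH18, which stands outside the clusters, fell from 6.53, 5.85 and 6.43 to 0.934, 0.480 and 0.513 CPM.

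**Figure D5:**
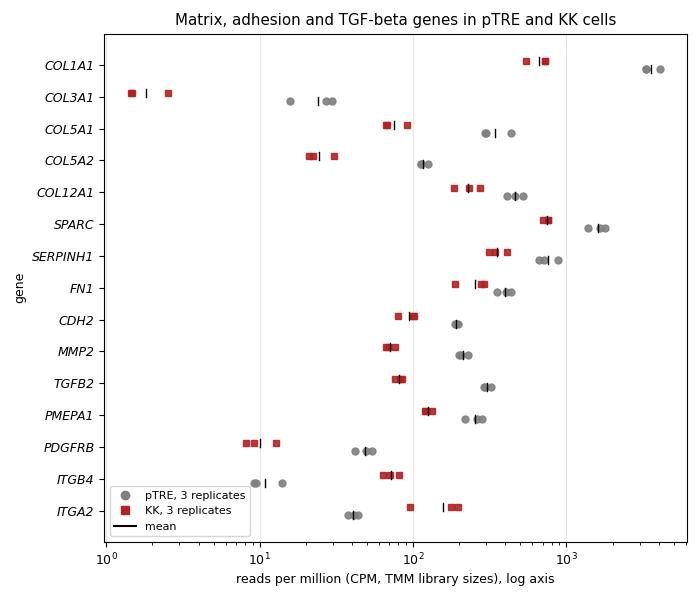
CPM of 15 matrix, adhesion and TGF-beta genes in each of 3 pTRE samples (grey circles) and 3 KK samples (red squares) on a log axis, with black ticks at the means. Collagen, SPARC, TGFB2 and PDGFRB values lie to the left in KK, and the integrins ITGB4 and ITGA2 lie to the right.

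Of 24 integrins 5 rose and 3 fell. ITGB4, the hemidesmosome subunit, was read at 9.46, 9.20 and 14.0 in pTRE and 81.1, 63.3 and 71.3 in KK CPM (log2 fold change 2.72 ± 0.17, adjusted p = 2.62e-08) and ITGA2, a collagen receptor subunit, at 37.6, 43.8 and 41.3 in pTRE and 195, 95.5 and 176 in KK CPM (log2 fold change 1.93 ± 0.23, adjusted p = 1.22e-05). ITGA5, the fibronectin receptor subunit, fell 1.64-fold. Of 11 laminins 4 fell and 1 rose, with LAMB2 down 2.27-fold. Keratins were split, 5 of 20 up and 6 down, with KRT80 (519 to 223 CPM) and KRT8 (503 to 268 CPM) among the falls and KRT34 (6.28 to 37.6 CPM) among the rises.

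Of 18 TGF-beta and BMP ligands 8 fell and 3 rose. TGFB2 was read at 324, 292 and 297 in pTRE and 81.7, 75.9 and 85.0 in KK CPM (log2 fold change -1.91 ± 0.13, adjusted p = 4.95e-08). TGFB3 and BMP4 fell 2.34-fold and 2.45-fold, TGFB1 did not pass (-0.17 on the log2 scale), and BMP2 and BMP6 rose 2.56-fold and 3.13-fold. Of 15 response genes 6 fell and 2 rose. PMEPA1 and SMAD7, both feedback inhibitors of the pathway, fell 2.03-fold and 1.64-fold, and ID4 rose 2.79-fold. Platelet-derived growth factor receptors fell, PDGFRB from 41.8, 49.1 and 54.4 to 9.13, 8.11 and 12.8 CPM and PDGFRA 2.14-fold, whereas the VEGF receptor FLT4 and the ligands VEGFC and PDGFC rose 2.66-, 2.29- and 2.59-fold. Of 12 tested genes of the IGF system 2 rose and 2 fell. IGFBP5, a binding protein of insulin-like growth factors, fell from a mean of 100.3 to 16.6 CPM. IGFBP4, of the same family, rose, with 616, 681 and 750 reads in pTRE and 1890, 1910 and 1830 in KK. WNT ligands went both ways (3 of 15 up, 4 down), as did the Frizzled group (4 of 15 up, 3 down). FZD2 fell from 58.9, 55.9 and 78.6 to 19.8, 22.4 and 20.8 CPM, ROR1 fell 2.84-fold, and ROR2 and FZD1 rose 3.17-fold and 2.24-fold.

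Of 36 hypoxia response genes 14 fell and 1 rose, with a median log2 fold change of -0.41. ALDOC, a glycolytic aldolase, was read at 48.5, 42.1 and 66.6 in pTRE and 7.47, 8.98 and 8.45 in KK CPM (log2 fold change -2.66 ± 0.24, adjusted p = 6.08e-07). CA12, a carbonic anhydrase, fell 2.98-fold, P4HA1, a collagen prolyl hydroxylase, 2.54-fold, and STC1 3.31-fold. EPAS1, which encodes HIF-2 alpha, was the member that rose (1.96-fold). Some members belong to other groups as well: LOX also stands in the EMT list, and ALDOC and HK2 in the glycolysis list. Of 26 glycolysis genes 6 fell and none rose in edgeR. Of 24 cholesterol synthesis genes 5 fell and none rose, among them INSIG1, the sterol sensor (-1.01), LSS (-0.87) and HMGCS1 (-0.81). Of 19 NRF2 targets 4 fell and none rose, with NQO1, a quinone reductase, at 130.0, 154 and 128 in pTRE and 54.2, 90.5 and 61.0 in KK CPM and ME1, malic enzyme, down 2.62-fold. GLUD1, glutamate dehydrogenase, rose from a mean of 134 to 615 CPM, though reads of its near-identical paralog GLUD2 may be counted with it.

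Of 34 interferon-stimulated genes 11 fell and 4 rose. BST2, which tethers budding viruses, was read at 20.2, 18.6 and 30.5 in pTRE and 1.21, 1.97 and 1.82 in KK CPM (log2 fold change -3.81 ± 0.33, adjusted p = 5.63e-07). IFI6 was read at 26.7, 24.6 and 32.7 in pTRE and 9.55, 11.3 and 8.41 in KK CPM, and IFIT1, which binds viral RNA, fell 2.56-fold. CMPK2, a mitochondrial nucleotide kinase counted among interferon-stimulated genes, rose instead, at 0.661, 0.836 and 1.43 in pTRE and 28.0, 22.4 and 21.0 in KK CPM (log2 fold change 4.59 ± 0.25, adjusted p = 8.97e-09), and so did the transcription factor IRF1 (2.57-fold). Among the chaperones 5 of 19 fell and HSP90AA1 alone rose. CRYAB, a small heat shock protein, was read at 43.9, 52.9 and 51.3 in pTRE and 5.26, 9.51 and 7.82 in KK CPM (log2 fold change -2.72 ± 0.24, adjusted p = 5.82e-07), and HSPB1 fell from a mean of 612 to 235 CPM. The other largest falls were ALPP, placental alkaline phosphatase (5.76 to 0.479 CPM), the delta-globin gene HBD (12.2 to 1.12 CPM), the folate receptor FOLR1 (-3.44 on the log2 scale), LRRC15 (-3.10), endothelin EDN2 (-2.93) and the atypical chemokine receptor ACKR3 (13.1 to 1.75 CPM). The ALPP log2 fold change, -3.65 in all samples, was -4.34 without KK replicate 2 and -3.01 without pTRE replicate 3. ALPP and HBD have closely similar neighbors in their clusters, which makes their counts uncertain.

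The medians of 5 large lists lay between -0.12 and 0.19 on the log2 scale. Of 78 ribosomal protein genes 1 fell and none rose in edgeR, and of 79 respiratory chain genes 1 fell and none rose. Of 31 replication-dependent histone genes with enough reads, of 71 listed, 1 fell. Most histone mRNAs lack a poly(A) tail and poly(A) selection depletes them. Of 29 snRNP and Sm protein genes 1 rose. Of 28 SR protein and SF3 splicing genes 3 rose and 1 fell, with SRSF12 the 1 member past 2-fold (means of 0.509 and 1.75 CPM). Of 11 arginine methyltransferase genes and SND1, which encodes the methyl-arginine reader p100/TSN, PRMT5 and PRMT2 fell by less than 1.5-fold, and the list's median log2 fold change was -0.33. PRMT5 was read at 112, 127 and 115 in pTRE and 83.9, 92.7 and 84.2 in KK CPM (log2 fold change -0.44 ± 0.12, adjusted p = 0.00958), a call lost without KK replicate 1, 2 or 3 or pTRE replicate 1, 2 or 3 (adjusted p from 0.0106 to 0.0489). The PRMT2 call (log2 fold change -0.43 ± 0.12, adjusted p = 0.00922) was lost without KK replicate 1, 2 or 3 or pTRE replicate 1, 2 or 3 (adjusted p from 0.0109 to 0.0518). SND1 did not pass (-0.13 on the log2 scale), nor did MYC (0.01).

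In direct contrasts that do not involve pTRE, KK differed from WT in 2 tested genes (0.012%) and from R109K in 22 genes (0.132%, 13 higher and 9 lower in KK) at an adjusted p below 0.01. Without adjustment, p was below 0.05 for 1415 genes against WT and 2062 against R109K. The counts depended on WT replicate 2. Without it, 1 gene differed from WT and 103 from R109K (0.612%), among them all 22, with p below 0.05 before adjustment for 667 and 2642 genes. ETV1 stood at 4.05, 2.50 and 3.32 CPM in KK, 1.78, 1.77 and 3.18 in WT and 0.357, 0.218 and 0.164 in R109K. FGF4 stood at 5.99, 4.23 and 4.58 CPM in KK, 7.16, 4.58 and 4.99 in WT and 2.07, 1.71 and 1.31 in R109K, and LRRC4 at 4.84, 3.94 and 3.75, 6.66, 10.8 and 3.29 and 1.98, 1.49 and 1.80. The KK and R109K ranges of these 3 genes were apart, and the KK and WT ranges overlapped. The study named them from the same RNA-seq data as high in KK and lower in R109K, and KCNIP for the reverse. Their separation and the direct differences below are therefore not independent of that choice. The direct difference between KK and R109K was 3.69 ± 0.39 on the log2 scale for ETV1 (adjusted p = 0.000896), while those for FGF4 (1.53 ± 0.27, adjusted p = 0.0175) and LRRC4 (1.25 ± 0.33, adjusted p = 0.0841) did not pass in edgeR. KCNIP1 went the other way, with KK at 2.35, 3.31 and 2.96 CPM below R109K at 5.54, 7.30 and 4.46 CPM, and WT at 1.57, 2.49 and 2.39 CPM, and did not pass (-1.01 ± 0.24, adjusted p = 0.054). Without WT replicate 2, FGF4 passed (adjusted p = 0.00477), and LRRC4 and KCNIP1 did not (0.0151 and 0.0227). E2F1 itself was at 1359.6, 1478 and 1112 CPM in KK, 2315, 1650.2 and 1469 in WT and 1283, 1259.8 and 932 in R109K.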

How the data were processed

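Directional libraries were made from poly(A)-selected RNA of 4 lines (pTRE, WT, R109K and KK), with 3 biological replicates of each. Per the submitters' processing notes and the study's methods, reads were trimmed with Trim Galore 0.4.3 and aligned to hg19 with STAR 2.5.1. The authors deposited raw counts of reads per gene symbol, without normalization. The counter's strand setting and the gene annotation are not given in the sources used here, so antisense and overlapping genes are uncertain. The summary lines that name no gene were left out. They held 35.3% to 41.0% of the reads of the pTRE and KK samples, most of them outside annotated genes.

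After filterByExpr and TMM normalization, edgeR 4.0.16 (R 4.3.3) was used for testing. One quasi-likelihood model with a mean per line was fitted to all 12 samples (common dispersion 0.0239), and KK was compared with pTRE. Benjamini-Hochberg adjustment covered 16625 genes. Genes with an adjusted p below 0.01 passed the test, and regulated genes also changed by more than 2-fold. Values after ± are standard errors from the model. For single samples, log2 CPM was computed with a prior count of 2. In a simulated data set holding 200 changed genes, edgeR called 199 and DESeq2 1.42.0 called 200, and 198 of each were changed genes. The data held many more passing genes, 2287 higher in KK and 1772 lower, with median absolute log2 fold changes of 1.02 and 0.83. Recovery holds only for the sizes of change and read levels that were simulated, which were not matched to those of the passing genes. It therefore does not give the accuracy of the calls in the data, least of all for small changes or genes with few reads.

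Named genes are E2F1, the genes the study names for its RNA-seq (LRRC4, ETV1 and FGF4), KCNIP1 as a member of the KCNIP family it names, the 10 largest rises and falls among genes whose mean count reached 50, up to 4 leading members of each list, and list members whose role is described. FAM111B, SYNE2, GLUD1, SLC16A1 and HSP90AA1 were chosen after their values were seen. The comparison and the gene lists were chosen with earlier results of these data known. Positions, promoters and the E2F1 codons come from GENCODE and the GRCh37 sequence, read with pysam 0.24.0. Alternatives comprised DESeq2, RLE normalization, other filters and thresholds, the 6 samples alone, a replicate block and single samples left out. Some genes are not reported here.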

Additional observations from a re-analysis of the deposited data

Results flagged for a closer look

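For 12 of the genes named, listed or different from WT, the KK level differed from that of another E2F1 line in a direct contrast of the 2 lines (edgeR, adjusted p below 0.01 over all tested genes). LINC00346, a long noncoding RNA, was lower in KK than in WT by a log2 difference of -1.90 (SE 0.20, adjusted p = 0.00157), at 1.00, 1.15 and 1.14 CPM in KK, 4.59, 3.93 and 3.76 in WT and 5.78, 6.88 and 5.73 in pTRE. MMP19, a metalloproteinase, was lower than in WT by -0.97 (adjusted p = 0.00599), at 9.41, 8.35 and 9.24 CPM in KK and 18.0, 18.0 and 17.2 in WT.

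Against R109K, 22 genes differed, of which the 10 that are named or belong to a gene list are given here. Without WT replicate 2, which has the fewest reads on genes, all 10 and LINC00346 still passed and MMP19 did not (adjusted p = 0.0127). The contrasts were not repeated under the other alternatives. ETV1 was higher in KK by 3.69 (SE 0.39, adjusted p = 0.000896). RUNX3, a Runt transcription factor, was higher by 1.57 (adjusted p = 0.00191) although KK (4.77, 4.61 and 4.50 CPM) lay below pTRE (9.13, 9.61 and 10.9 CPM), with R109K at 1.94, 1.20 and 1.51 CPM. CRYAB was lower by -1.50 (adjusted p = 0.00981), with R109K at 15.9, 24.7 and 22.7 CPM. FA2H was higher by 1.17 (adjusted p = 0.00981), with R109K at 8.88, 8.54 and 7.17 CPM, and HS6ST3 by 1.01 (adjusted p = 0.00931). THBS1 was higher by 1.00 (adjusted p = 0.00451). By less than 2-fold, FZD2 was lower by -0.99 (adjusted p = 0.00981), TGFB2 lower by -0.88 (adjusted p = 0.00604) and UNC5B higher by 0.82 (adjusted p = 0.00981). CYP2E1, a cytochrome P450, was lower in KK than in R109K by -2.15 (adjusted p = 0.00459) but did not pass against pTRE, at 0.496, 0.608 and 0.441 in pTRE and 0.519, 0.384 and 0.513 in KK CPM and 1.94, 2.22 and 2.21 CPM in R109K.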

How the results depend on the processing

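The 1814 regulated genes, 1165 up and 649 down, kept within 1.5 times of these counts under DESeq2 (1853), RLE normalization (1818), either filter (1444 to 1844), the 6 samples alone (1903) and the fit without WT replicate 2 (1986). With a test of the 2-fold change itself (glmTreat), 567 genes passed, 447 up and 120 down. At an adjusted p below 0.05, 2879 genes passed downwards in place of 1772, and 3218 upwards in place of 2287. Leaving out 1 KK or pTRE sample gave 1606 to 1801 regulated genes, and no regulated gene changed sign under any alternative in which it was tested. Deviations from the line means correlated at 0.04, -0.16 and -0.06 between KK and pTRE samples of the same replicate number. Between samples of different number they correlated at -0.14 to 0.16. These few values show no pairing by number, but cannot decide whether samples of the same number were handled together. With the replicate block, 1777 genes were regulated, 1138 up and 639 down. In the direct contrasts, leaving out WT replicate 2, an alternative chosen after seeing the data, gave 1 gene against WT in place of 2 and 103 against R109K in place of 22. Among the genes named or ranked, 348 passed the test, and between 24 and 39 of them no longer did when 1 KK or pTRE sample was left out. Genes with few reads in 1 line are limited by depth, and the size of their fold changes moved most.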

Other observations

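Developmental transcription factors also changed. Of 34 tested HOX genes 9 rose and 5 fell, and the calls of several depended on 1 sample. All 7 HOXA members that passed rose, among them HOXA13 (2.56, 1.79 and 2.31 in pTRE and 15.8, 9.99 and 14.0 in KK CPM) and HOXA3 (1.98 to 8.27 CPM), and HOXB3 (0.49 on the log2 scale) and HOXD8 (0.79) rose as well. HOXB13 (-0.84), HOXC6 (-0.56), HOXC11 (-0.94), HOXD10 (-1.93) and HOXD11 (-1.75) fell. The HOXB3 call was lost without KK replicate 1 or 3 or pTRE replicate 1 or 2 (adjusted p from 0.0192 to 0.0328), the HOXD8 call without pTRE replicate 2 (adjusted p = 0.0117), the HOXC6 call without KK replicate 1 or 3 or pTRE replicate 1, 2 or 3 (adjusted p from 0.0156 to 0.0285) and the HOXC11 call without KK replicate 1 or 3 or pTRE replicate 3 (adjusted p from 0.0103 to 0.0129). Of 40 SOX and FOX genes 13 rose and 5 fell. FOXK1 was read at 149, 198 and 145 in pTRE and 458, 372 and 461 in KK CPM, FOXO1, a target of insulin signaling, at 7.81, 8.93 and 6.87 in pTRE and 32.5, 20.8 and 24.8 in KK CPM, and FOXJ1, the regulator of motile cilia, had 0, 4 and 3 reads in pTRE against 73, 104 and 74 in KK. Of 472 zinc finger genes named ZNF 26 rose (background 13.8%) and 57 fell (background 10.7%), shares of 5.51% and 12.1%.

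Among 20 tested tubulin genes 3 rose, 5 fell and 12 did not pass, with a median log2 fold change of -0.06. TUBG1, the gamma-tubulin of the centrosome, was read at 76.9, 78.5 and 88.0 in pTRE and 227, 243 and 202 in KK CPM (log2 fold change 1.46 ± 0.12, adjusted p = 3.02e-07), and TUBG2, its paralog, rose 2.53-fold, whereas TUBA1A, TUBB3 and TUBB4A fell (-1.55, -1.61 and -1.95 on the log2 scale). Tubulin paralogs are similar, which leaves the split of reads among them uncertain. Of 212 tested LINC RNAs 27 rose and 35 fell. LINC01024 was read at 1.82, 2.32 and 1.84 in pTRE and 19.7, 16.9 and 16.3 in KK CPM and LINC00862 at 6.07, 6.35 and 5.80 in pTRE and 1.18, 0.768 and 1.46 in KK CPM. Of 14 tested YAP and TAZ response genes 2 rose, 2 fell and 10 did not pass, with a median log2 fold change of -0.10. AJUBA, a LIM protein of the Hippo pathway, fell from 224, 247 and 268 to 71.2, 74.9 and 90.0 CPM. TEAD4, the DNA-binding partner of YAP, rose from 76.6, 99.6 and 96.6 to 189, 216 and 181 CPM.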
